A study of Mus musculus with 32 samples.

Results

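Interferon response genes are the genes that cells switch on when an interferon binds its receptor. Of 40 listed symbols, 39 have a row on the array, among 19505 genes with a symbol. Gbp6 is not analysed here. Genes were taken from the platform annotation by symbol, and each of the 39 has exactly 1 row, so no choice between rows was needed. A gamma-type class comprises Cxcl9, the guanylate-binding protein genes and the immunity-related GTPase genes Iigp1, Irgm1 and Igtp (9 listed, 8 with a row). A type I class comprises the Ifit, Oas, Oasl and Mx genes (10 of 10 have a row). The other 21 are a ligand, chemokines, transcription factors and effectors.

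Expression was measured on 32 arrays of ear and dorsal back skin from NC/Nga mice, inbred animals known to develop dermatitis readily. The 4 groups of 8 arrays each were HDM-treated ear, sham ear, HDM-treated back skin and sham back skin. RNA came from whole 8 mm punches, so that every value mixes the cells of the skin, and fewer cells of a type cannot be told apart from less RNA per cell. All mice share the strain and were kept free of specific pathogens, while their age and sex, the dose of HDM and the nature of the sham treatment are not stated. The labels do not spell out HDM. Mouse numbers recur at both sites, and whether such samples came from 1 animal is not stated, so p-values measure the spread between these samples.

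Type I interferons act through the IFNAR receptor and a transcription factor complex that holds STAT2 and IRF9 and binds the interferon-stimulated response element. Interferon-gamma, made mainly by T cells and natural killer cells, acts through the IFNGR receptor and gamma-activated sites, and induces IRF1, which in turn binds elements of the first kind. The target genes overlap widely, so the names gamma-type and type I mark a leaning and not an exclusive control. In skin, keratinocytes, fibroblasts and infiltrating leukocytes can all respond to both.

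Promoter windows show what the members share in sequence. RefSeq windows (GRCm38.p6) running from 250 bases before to 50 bases after the start were found for 27 of the 39 measured members. The core of the interferon-stimulated response element, written here as GAAA, any 2 bases and GAAA and searched on both strands, was in a window of 15 of these 27 (55.6%), against 3.93% of 15686 genes with a tested row. The gamma-activated site TTCNNNGAA, which reads the same on both strands, was in 8 of 27 (29.6%), against 9.03% of the same genes. By class, the element core was found for 5 of 6 gamma-type and 4 of 7 type I genes, and the gamma-activated site for 2 of 6 and 2 of 7. Matches of the 2 motifs can overlap each other, as in Bst2. No match of either motif was found in the windows of Cxcl9, Oasl1, Oasl2, Irf7, Irf9, Tap1, Xaf1 and Cmpk2. This says only that these letters are not there. The windows of 4 genes are shown, chosen after the search to give each kind of match in genes that were called in ear. They belong to Gbp2 (chr3:142620413-142620712, plus strand), Igtp (chr11:58199306-58199605, plus strand), Irf1 (chr11:53769764-53770063, plus strand) and Ifit3 (chr19:34583279-34583578, plus strand), and capitals mark the motif matches.
Gbp2: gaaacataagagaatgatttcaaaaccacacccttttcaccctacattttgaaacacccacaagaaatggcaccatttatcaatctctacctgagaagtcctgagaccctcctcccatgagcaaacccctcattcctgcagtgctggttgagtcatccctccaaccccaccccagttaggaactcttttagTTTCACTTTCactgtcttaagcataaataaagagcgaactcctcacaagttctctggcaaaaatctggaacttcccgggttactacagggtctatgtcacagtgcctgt
Igtp: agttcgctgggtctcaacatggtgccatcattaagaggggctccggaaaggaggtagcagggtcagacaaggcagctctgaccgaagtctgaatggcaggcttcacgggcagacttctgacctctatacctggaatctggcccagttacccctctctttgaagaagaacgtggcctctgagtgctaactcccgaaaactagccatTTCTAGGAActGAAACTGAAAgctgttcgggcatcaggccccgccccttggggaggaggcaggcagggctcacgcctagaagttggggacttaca
Irf1: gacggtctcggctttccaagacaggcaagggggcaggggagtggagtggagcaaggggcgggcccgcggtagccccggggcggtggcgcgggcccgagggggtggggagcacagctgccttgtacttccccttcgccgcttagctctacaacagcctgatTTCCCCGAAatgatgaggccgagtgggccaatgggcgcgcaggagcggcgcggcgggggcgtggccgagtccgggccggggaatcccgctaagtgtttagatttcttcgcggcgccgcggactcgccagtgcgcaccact
Ifit3: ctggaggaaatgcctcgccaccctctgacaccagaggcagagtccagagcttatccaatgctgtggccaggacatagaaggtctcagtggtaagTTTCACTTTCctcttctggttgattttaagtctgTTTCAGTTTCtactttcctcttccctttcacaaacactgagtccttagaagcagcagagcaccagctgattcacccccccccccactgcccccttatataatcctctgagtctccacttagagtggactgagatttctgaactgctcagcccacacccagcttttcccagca
Gbp2 carries 1 element core and Ifit3 carries 2, all on the minus strand. Igtp carries a gamma-activated site and an element core side by side. Irf1 carries a gamma-activated site with no element core. Matching letters are a description of the sequence and not evidence of binding.

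Values are log2 expression levels, and a difference of 1 is a doubling if the values were not rescaled after normalization. The background of an array, the median of its negative control rows, lay between 4.43 and 5.38, with group means of 4.82 in HDM ear, 5.20 in sham ear, 4.84 in HDM back and 4.72 in sham back skin. Many members were dim. Below background on all 8 arrays were 3 members in HDM ear, 17 in sham ear, 7 in HDM back and 8 in sham back skin. A fold against such a group is given as at least N-fold, from the background level, where the other group lies above it. Within sham back skin, mice 1 and 2 stood apart, with mean hair follicle marker levels of 7.53 and 11.31 against 12.80 to 15.39 on the other 6 arrays, and results that rest on them are given without them too. These mice also held the highest sham back value for 10 and 15 of the 31 members above background there on some array. Leaving them out thus also takes away the highest sham back values of many members. Keratinocyte markers were high on all arrays (16.70 to 17.46 as the mean of 7 genes), as the skin label requires. Close relatives within the Gbp, Oas and Ifit families may share probe sequence, so values of single members are uncertain to that degree.

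The interferon genes themselves were near or below background. Ifng, which encodes interferon-gamma, was above background on 1 array of HDM ear (4.81 in mouse 5) and on 0 of sham ear, and on 0 arrays of HDM back and 1 of sham back skin (5.17 in mouse 1). Its mean was 3.39 ± 0.64 in HDM ear and 3.27 ± 0.39 in sham ear (SD, n = 8 each), a difference of 0.12 ± 0.27 (SE, limma adjusted p = 0.79). Of 18 other interferon genes with a row, 15 were below background in both ear groups and 16 in both back skin groups. Ifnb1, the gene of interferon-beta, lay between 3.12 and 3.18 as a mean in each of the 4 groups, below background on every array. Ifnk was the only ligand called in either HDM comparison, higher in back skin, with both groups below background. In back skin 6.18% of all rows were called higher.

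In ear, HDM was compared with sham to find which interferon response genes the treatment moved. Of 39 members, 27 were called higher in HDM ear and 0 lower, at an adjusted p under 0.05 over all 22206 tested rows, of which 31.9% were called (16.4% higher and 15.5% lower). The median difference of the members was 0.89, against -0.02 for all rows. HDM ear lay wholly above sham ear for 8 members (Cxcl9, Cxcl10, Irf1, Mx1, Oasl2, Gbp7, Igtp and Xaf1), and such a gap was seen for 4.99% of all rows, and one in the other direction for 2.66%. Of the 27, 11 were above background on every array of both groups, and 18 were still called when values under background were set to it. The remaining 9 (Irf7, Isg15, Oas1a, Oas2, Oas3, Oasl1, Rsad2, Zbp1 and Dhx58) were below background on all sham ear arrays.

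Of 3 chemokine genes, 2 were called higher in ear. Cxcl9, a CXCR3 ligand that draws activated T cells, ranged from 6.73 to 11.30 with a median of 8.71 in HDM ear, against 4.57 to 6.22 with a median of 4.85 in sham ear. The groups did not overlap, although only 2 of 8 sham arrays were above background. The difference was 3.83 ± 0.48 (SE, limma adjusted p = 3.17e-07), and 3.47 when each value under background was set to the background. Cxcl10, a second CXCR3 ligand, ranged from 4.83 to 8.01 with a median of 6.66 in HDM ear, above background on 7 arrays. It was below background on every sham ear array (3.18 to 4.47, median 3.93), so that it was at least 2.54-fold higher in HDM ear (adjusted p = 1.06e-07). Cxcl11, the third CXCR3 ligand, was below background on all arrays of the 4 groups.

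**Figure D1:**
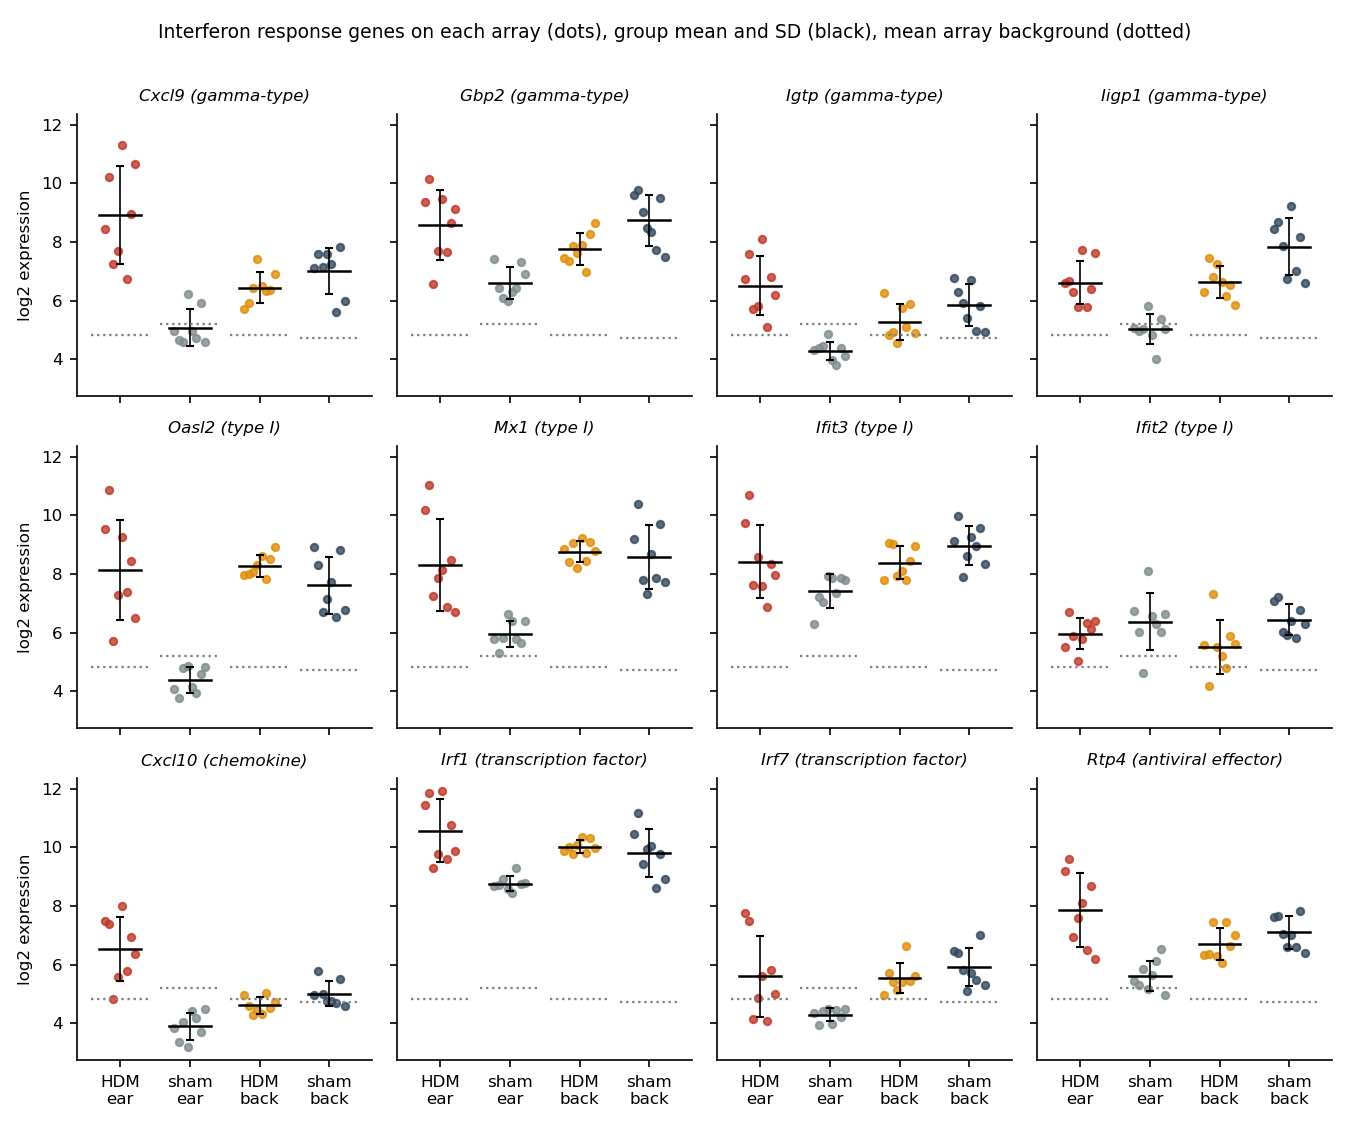
Log2 expression of 12 interferon response genes on each array (dots), by group, with the group mean and SD in black and the mean array background as a dotted line. Sham ear is the lowest group for Cxcl9, Oasl2, Mx1 and Igtp, and HDM ear spreads most widely for Cxcl9 (6.73 to 11.30) and Oasl2 (5.72 to 10.87).

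Gamma-type genes rose in ear for 6 of 8 members, with a class median of 1.83. Igtp, an immunity-related GTPase gene, ranged from 5.10 to 8.10 with a median of 6.46 in HDM ear, and was below background throughout sham ear (3.81 to 4.85, median 4.33). It was at least 2.48-fold higher in HDM ear (adjusted p = 5.11e-06). Among genes of guanylate-binding proteins, GTPases that attack vacuoles holding pathogens, Gbp2 rose by 1.97 ± 0.39, Gbp3 by 1.85 ± 0.34 and Gbp7 by 1.80 ± 0.34. Gbp2 ranged from 6.56 to 10.14 with a median of 8.89 in HDM ear, against 5.98 to 7.42 with a median of 6.44 in sham ear, and the lowest HDM array (mouse 3) lay within the sham range. Gbp4 stood out from these relatives, with 9.17 ± 0.37 in HDM ear and 9.19 ± 0.51 in sham ear (adjusted p = 0.966). Iigp1, an immunity-related GTPase gene, rose by 1.60 ± 0.34, with 8 of 8 arrays above background in HDM ear and 2 of 8 in sham ear. Irgm1, a regulator of these GTPases, differed by 0.76 ± 0.34 (adjusted p = 0.0838).

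Type I genes were called for 7 of 10 members in ear, with a class median of 0.87. Oasl2, a member of the oligoadenylate synthetase family of antiviral enzymes, ranged from 5.72 to 10.87 with a median of 7.92 in HDM ear. It was below background on every sham ear array (3.75 to 4.85, median 4.37) and so at least 7.63-fold higher in HDM ear (adjusted p = 4.91e-07). Mx1, a dynamin-like GTPase gene that blocks influenza virus in mice, ranged from 6.69 to 11.04 with a median of 8.00 in HDM ear, against 5.31 to 6.62 with a median of 5.79 in sham ear. The groups did not overlap, and Mx1 rose by 2.35 ± 0.47 (adjusted p = 1.90e-04). Ifit3, whose protein takes part in binding viral RNA, rose by 1.00 ± 0.38 (adjusted p = 0.0434), a call that was lost under 4 other settings, with an adjusted p of up to 0.0922. Ifit2 did not follow, with 5.97 ± 0.53 in HDM ear and 6.38 ± 0.97 in sham ear (adjusted p = 0.442). The other called members were Oas1a, Oas2 and Oas3, above background on 2 or 3 HDM arrays and on 0 sham arrays, and Oasl1, below background in both groups. Ifit1 was above background on 2 HDM arrays (adjusted p = 0.114), and Mx2 on none.

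Transcription factors of the response differed among themselves in ear. Irf1 ranged from 9.30 to 11.94 with a median of 10.33 in HDM ear, against 8.43 to 9.29 with a median of 8.73 in sham ear, and rose by 1.80 ± 0.33 (adjusted p = 6.97e-05). Irf7, which drives production of type I interferon, was at least 1.31-fold higher in HDM ear, with 6 of 8 arrays above background there and 0 in sham ear. It was called on the values as deposited (adjusted p = 0.00867). With values under background set to it, the difference was 0.60 and was not called (limma adjusted p = 0.119). Stat2 and Irf9, which act in the type I complex, differed by 0.44 ± 0.28 (adjusted p = 0.254) and 0.57 ± 0.23 (adjusted p = 0.0591). Both were above background on all 16 ear arrays.

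Among effectors and sensors, Rtp4, which in mice acts as a negative regulator of type I responses, rose by 2.23 ± 0.37 (adjusted p = 2.00e-05). Xaf1, whose protein binds an inhibitor of apoptosis, rose by 1.21 ± 0.26. Parp9 and Parp14, genes of the ADP-ribosyltransferase family, rose by 1.14 ± 0.30 and 0.79 ± 0.31. The call of Parp14 (adjusted p = 0.0473) was lost in 20 of 32 fits that left out 1 array and under 5 of 12 other settings. Smaller rises were those of Tap1, which moves peptides to MHC class I (0.70 ± 0.26), Ifi35 (0.65 ± 0.22) and Bst2, the gene of tetherin (0.59 ± 0.20). Isg15, a ubiquitin-like modifier gene, Rsad2, the gene of viperin, and the nucleic acid sensor genes Zbp1 and Dhx58 were called higher, with 2 to 4 HDM arrays and 0 sham arrays above background. Ifih1, the gene of the RNA sensor MDA5, Cmpk2, a nucleotide kinase gene, and Usp18, which removes ISG15, were not called.

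**Figure D2:**
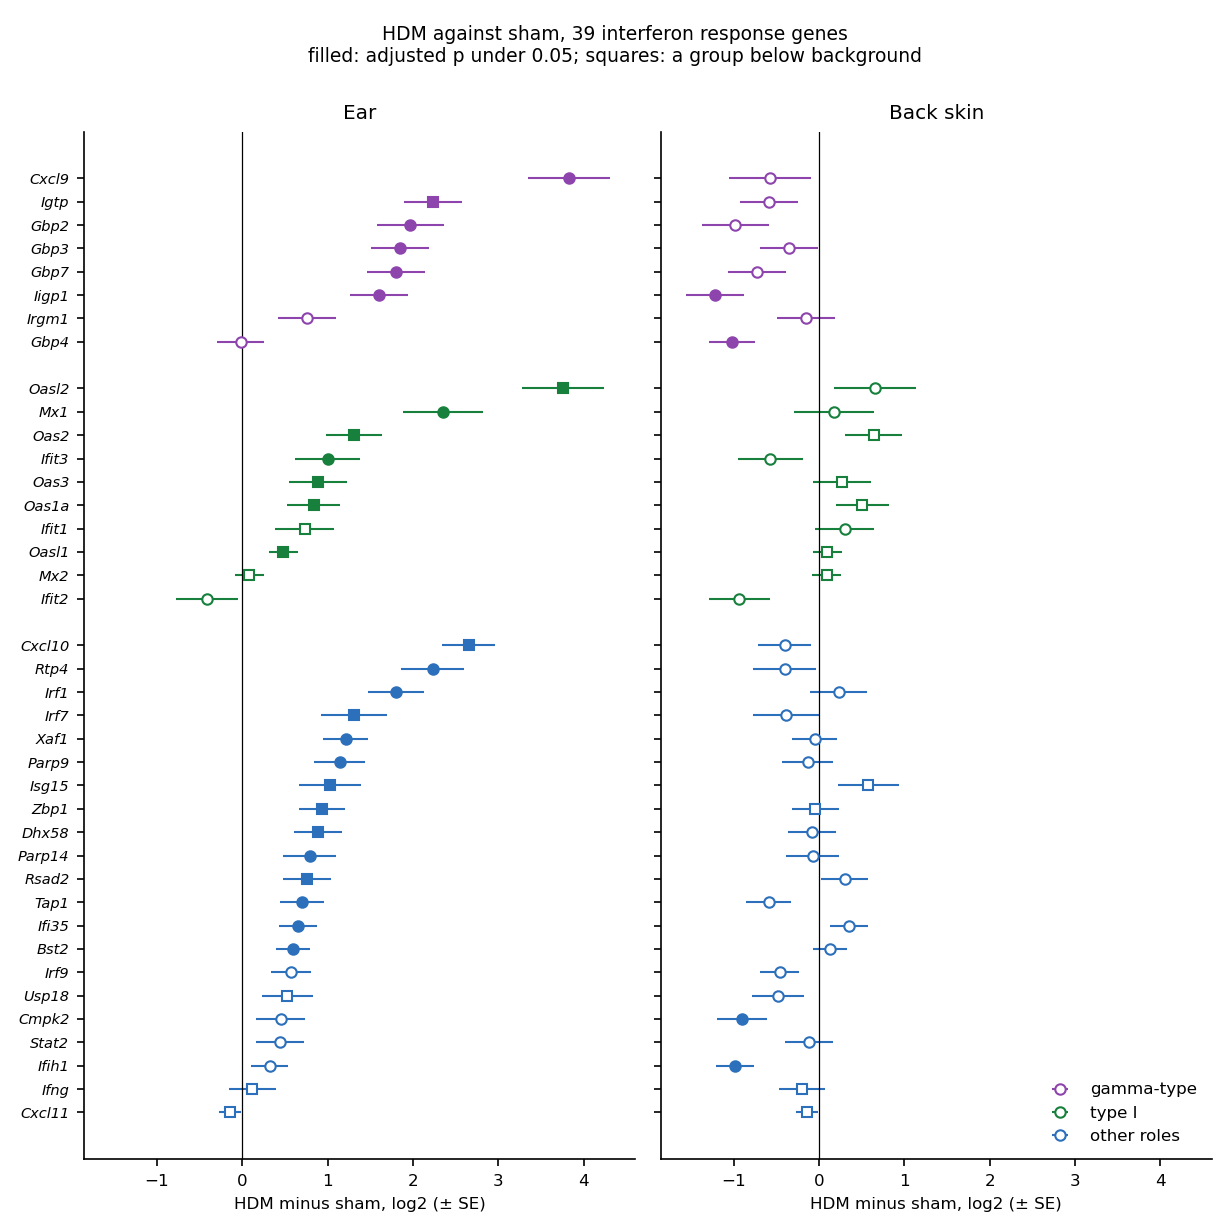
HDM minus sham in log2 units, with its standard error, for 39 genes in ear (left) and back skin (right), ordered by class and by the difference in ear. Filled points are called at an adjusted p under 0.05 and squares have a group below background: in ear 27 points are filled, all above 0, and in back skin 4, all below 0.

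In back skin the same comparison gave 0 members higher and 4 lower of 39. Over all rows 14.7% were called (6.18% higher and 8.56% lower), so the share of members called lower was near that of all rows. In limma 8 members had an unadjusted p under 0.05. With array medians made equal, 2433 rows were higher and 1392 lower, against 1372 and 1901 as deposited, and the median of all rows moved to 0.13 from 0.01. The members' median difference was -0.14. No member had groups that did not overlap, against 1.83% of rows with HDM wholly above and 2.33% with HDM wholly below sham.

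The lower members were Iigp1, Gbp4, Ifih1 and Cmpk2. Iigp1 ranged from 5.85 to 7.46 with a median of 6.58 in HDM back skin, against 6.60 to 9.23 with a median of 8.02 in sham back skin, and fell by 1.22 ± 0.34 (adjusted p = 0.0127). Gbp4 ranged from 8.13 to 9.53 with a median of 9.04 in HDM back skin, against 8.52 to 10.78 with a median of 10.09 in sham back skin, and fell by 1.02 ± 0.27 (adjusted p = 0.00837). Ifih1 fell by 0.98 ± 0.22 (adjusted p = 0.00256), with 8.41 to 9.30 in HDM and 9.22 to 10.80 in sham back skin. Cmpk2 fell by 0.90 ± 0.29 (adjusted p = 0.03). All 8 HDM arrays lay below the sham mean for each of the 4, and the groups overlapped. Without sham back mice 1 and 2 only Ifih1 was still called, with an adjusted p of 0.0593 for Gbp4, 0.0667 for Iigp1 and 0.121 for Cmpk2.

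Type I genes were called for 0 of 10 members in back skin, beside 14.7% of all rows, and 4 of the 10 were below background in both groups. Oasl2 averaged 8.27 ± 0.38 in HDM and 7.61 ± 0.97 in sham back skin (adjusted p = 0.41), and Mx1 averaged 8.76 ± 0.37 and 8.59 ± 1.09 (adjusted p = 0.86). Both were well above background on all 16 back skin arrays. Ifit2 differed by -0.93 ± 0.36 (adjusted p = 0.0833). The class median was 0.22, against -0.66 for the gamma-type class, in which all 8 differences were below 0. Cxcl9 averaged 6.44 ± 0.53 in HDM and 7.01 ± 0.80 in sham back skin (adjusted p = 0.484), and was above background on all arrays of both. Irf1 averaged 10.03 ± 0.22 in HDM and 9.80 ± 0.82 in sham back skin (adjusted p = 0.718).

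Whether the treatment acted differently at the sites was tested as the HDM effect in ear minus that in back skin. Of 39 members, 18 had a difference above 0 and 0 one below 0 at the threshold, and 10.1% of all rows were called (6.77% higher and 3.37% lower). As deposited 1503 rows were higher and 748 lower, with array medians made equal 1105 and 1310, and with quantile normalization 1106 and 1092. The gamma-type class gave 6 of 8 calls and a median of 2.67, the type I class 2 of 10 and a median of 0.57, and the other roles 10 of 21. The difference of effects was 4.40 ± 0.68 for Cxcl9 (adjusted p = 9.82e-05), and 4.04 when values under background were set to it. It was 2.95 ± 0.55 for Gbp2 (adjusted p = 7.88e-04), whose effect was 1.97 in ear and -0.98 in back skin. A positive difference need not mean a larger effect in ear, since Ifih1 (0.32 in ear and -0.98 in back skin) and Cmpk2 (0.45 and -0.90) were called in back skin and not in ear. Sham ear was below background throughout for Oasl2, Cxcl10, Igtp and Irf7, so the sizes of their differences are not measured. Set to background there, they gave 2.27, 1.54, 1.78 and 0.98, and Irf7 was no longer called (adjusted p = 0.0914). Ifit3, with 1.58 ± 0.54, was not called (adjusted p = 0.0594). Without sham back mice 1 and 2, 10 of the 18 were still called, namely Cxcl9, Cxcl10, Oasl2, Gbp2, Gbp3, Gbp7, Iigp1, Igtp, Ifih1 and Rtp4.

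The starting levels of the sites also differed. In sham ear against sham back skin, 19 members were lower and 0 higher, while 29.7% of all rows were called (15.6% higher and 14.1% lower). As deposited 3469 rows were higher and 3124 lower, and with array medians made equal 5063 and 2462, when the median of all rows moved to 0.16 from 0.04. The members' median was -0.65. Lower were 7 of 8 gamma-type genes (median -1.49), 3 of 10 type I genes (median -0.32) and 9 of 21 others. Sham ear lay wholly below sham back skin for 7 members, against 4.14% of all rows, and wholly above for 0, against 4.40%. Of the 19, 9 were above background on every array of both groups and 1 was below it in both. With values under background set to it, 14 were still called lower. Without sham back mice 1 and 2, 15 of the 19 were still called.

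Iigp1 ranged from 4.01 to 5.83 with a median of 5.03 in sham ear, against 6.60 to 9.23 with a median of 8.02 in sham back skin, with no overlap. It was lower in sham ear by -2.83 ± 0.34 (adjusted p = 7.04e-08). Mx1, at 5.31 to 6.62 in sham ear against 7.33 to 10.39 in sham back skin, differed by -2.62 ± 0.47 (adjusted p = 4.64e-05). Gbp2, at 5.98 to 7.42 against 7.47 to 9.78, differed by -2.13 ± 0.39 (adjusted p = 6.84e-05). Oasl2, below background in sham ear and at 6.52 to 8.91 in sham back skin, was at least 5.33-fold lower in sham ear (adjusted p = 3.09e-06). Irgm1 did not pass, with 7.54 ± 0.34 in sham ear and 7.83 ± 0.79 in sham back skin (adjusted p = 0.57). The sham ear arrays enter both this comparison and that of HDM with sham ear, so the values of both are set side by side and no relation between them is given.

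Under HDM the sites differed for fewer members. In HDM ear against HDM back skin, 8 members were higher and 0 lower, with 28.0% of all rows called (16.8% higher and 11.2% lower). The share of members called higher was near that of all rows. Higher were the gamma-type genes Cxcl9, Gbp3, Gbp7 and Igtp, together with Cxcl10, Irf9, Tap1 and Rtp4. Cxcl9 ranged from 6.73 to 11.30 with a median of 8.71 in HDM ear, against 5.72 to 7.42 with a median of 6.38 in HDM back skin, a difference of 2.47 ± 0.48 (adjusted p = 1.48e-04). Cxcl10 differed by 1.94 ± 0.31 (adjusted p = 9.22e-06), with 7 HDM ear arrays and 2 HDM back arrays above background. Igtp differed by 1.24 ± 0.34 and Gbp7 by 1.13 ± 0.34. The groups overlapped for all 8, and no member lay wholly to one side, against 4.22% of all rows with HDM ear wholly above and 3.70% with it wholly below HDM back skin.

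Type I genes gave 0 of 10 calls between the HDM sites, 0 also at an unadjusted p under 0.05 in limma, with a class median of 0.02 against 0.93 for the gamma-type class. Of all rows 28.0% were called, and 2 of the 10 genes were below background in both groups. Oasl2 averaged 8.13 ± 1.72 in HDM ear and 8.27 ± 0.38 in HDM back skin, a difference of -0.14 ± 0.48. Mx1 averaged 8.31 ± 1.56 and 8.76 ± 0.37, and Ifit3 8.43 ± 1.24 and 8.39 ± 0.55. Iigp1 was the gamma-type gene nearest to equal, with 6.61 ± 0.73 in HDM ear and 6.62 ± 0.54 in HDM back skin. An adjusted p above the threshold does not show that levels are the same, and the standard errors of these differences were 0.34 to 0.48.

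**Figure D3:**
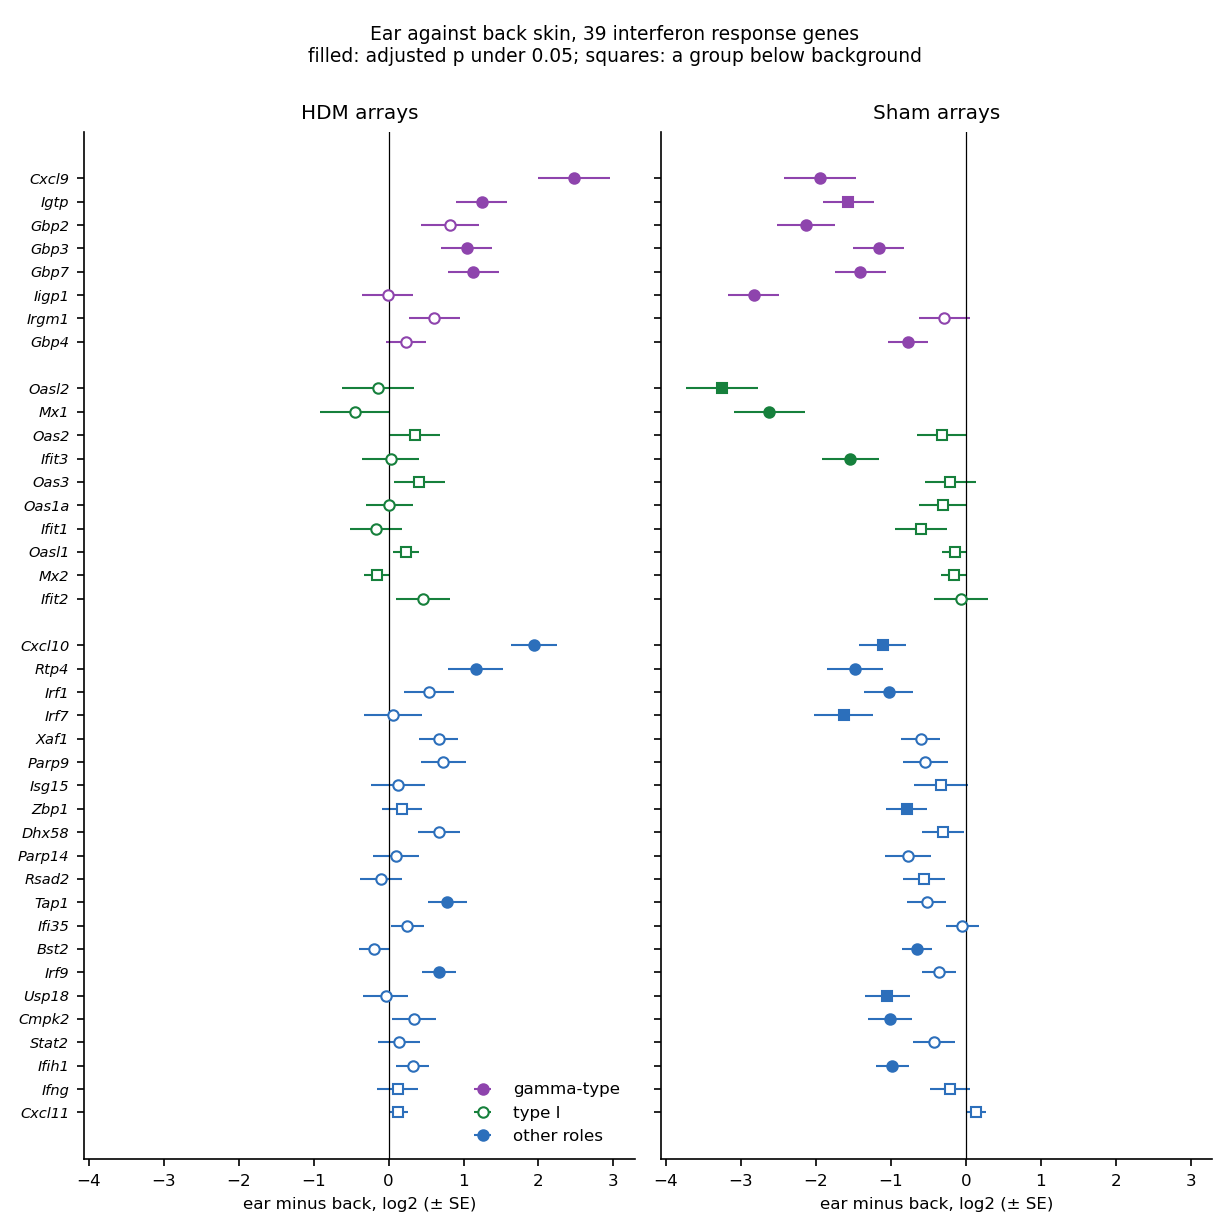
Ear minus back skin in log2 units, with its standard error, for 39 genes on HDM arrays (left) and sham arrays (right), in the order of the plot of HDM against sham. Filled points are called at an adjusted p under 0.05 and squares have a group below background: on HDM arrays 8 points are filled, all above 0, and on sham arrays 19, all below 0.

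Set side by side, the classes differed in the size of their medians in each comparison. The gamma-type median exceeded the type I median by 0.96 for HDM in ear and by 0.91 between the HDM sites, and lay below it by -0.88 for HDM in back skin and by -1.17 between the sham sites. For the difference of effects it was 2.10 above. When values under background were set to it, the gap was 1.64 for HDM in ear and -1.65 between the sham sites. Genes below background in both groups then take the difference of the group backgrounds. Mx2, for example, takes -0.38 in ear and 0.48 between the sham sites, which moves the type I median. The classes are not matched in signal. Of 8 gamma-type genes 8 were above background on every HDM ear array, against 4 of 10 type I genes, and of these 10 only Ifit2, Ifit3, Mx1 and Oasl2 were above background on at least 8 of the 32 arrays. In ear Ifit2, Ifit3 and Mx1 differed by -0.41, 1.00 and 2.35, and Oasl2 was at least 7.63-fold higher in HDM ear, so that these 4 did not move alike. On average these 4 stood at 7.71 in HDM ear and 6.03 in sham ear, against 8.29 and 6.54 for the 8 gamma-type genes. By these means both sets rose by similar amounts in ear. In HDM and sham back skin they stood at 7.73 and 7.90, against 7.35 and 8.05. Oasl2, 1 of the 4, was below background throughout sham ear. The gaps between class medians above are for all 8 and 10 genes, dim ones included. The part that signal has in the gap between the classes was not tested.

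**Figure D4:**
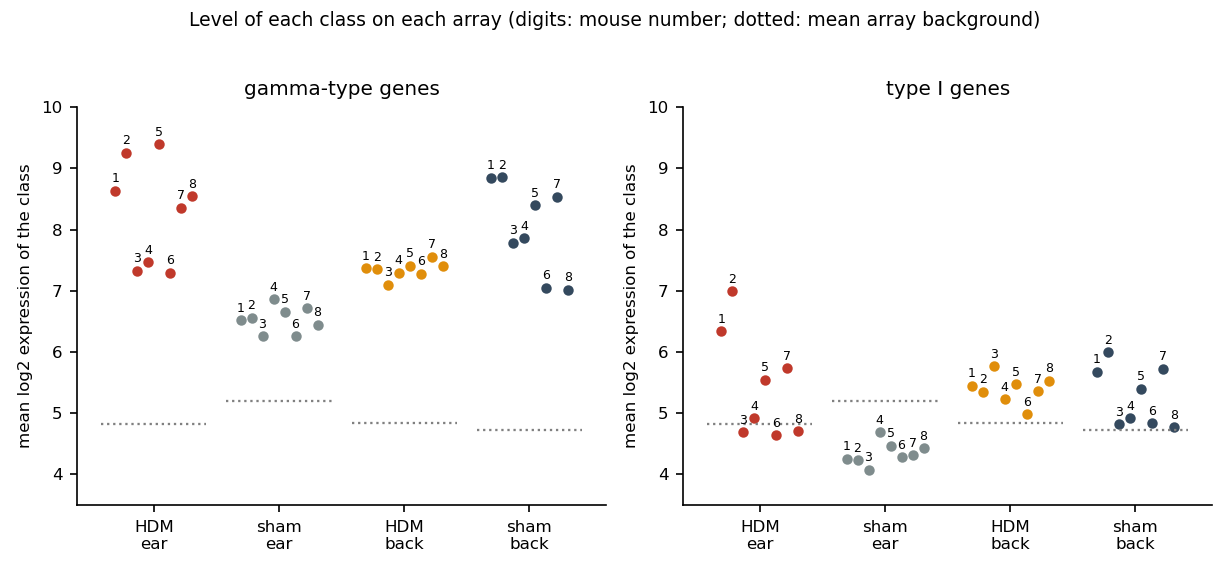
Mean log2 level of the 8 gamma-type genes (left) and the 10 type I genes (right) on each array, with mouse numbers and the mean array background (dotted). Sham ear is lowest in both panels (6.26 to 6.86 and 4.08 to 4.69), and HDM ear spreads most widely (7.30 to 9.40 and 4.64 to 7.00).

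The response in ear was uneven between mice. Over the 16 members above background on all 32 arrays, the median SD was 0.77 in HDM ear and 0.49 in sham ear, and 0.46 in HDM back and 0.74 in sham back skin. HDM ear had the widest spread for 8 of the 16 and sham back skin for 6. Of 36 members above background on some array, mouse 2 held the highest HDM ear value for 17 and mouse 5 for 11, while mouse 6 held the lowest for 13 and mouse 3 for 10. The mean gamma-type level ran from 7.30 in mouse 6 to 9.40 in mouse 5, and the mean type I level from 4.64 in mouse 6 to 7.00 in mouse 2. Because limma used 1 pooled spread per row, errors may be too small for the uneven groups. A separate fit per tissue called 19 members in ear, all among the 27, without Isg15, Ifit3, Oas3, Oasl1, Rsad2, Ifi35, Parp14 and Bst2.

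The classes did not rank the mice alike. The gamma-type level exceeded the type I level by 3.85 in mouse 5 and 3.84 in mouse 8, and by 2.26 to 2.66 in the other 6 HDM ears. On the other groups this gap was 1.98 to 2.41 in sham ear, 1.33 to 2.30 in HDM back and 2.22 to 3.17 in sham back skin. In mouse 8, Cxcl9 stood at 10.65 and Gbp2 at 9.14, while Mx1 at 6.69 was the lowest of the group and Oasl2 was at 6.51. In mouse 1, Mx1 was at 10.19 and Oasl2 at 9.54, with Cxcl9 at 8.45. These are single arrays with no replicate check. Sham back skin was uneven too, with the mean gamma-type level at 8.85 and 8.86 in mice 1 and 2 and at 7.02 to 8.54 in the other 6.

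Many markers of infiltrating cells were higher in ear, though not all. Of all rows, 16.4% were higher and 15.5% lower in ear, and 6.18% higher and 8.56% lower in back skin. All 14 measured macrophage and monocyte markers were called higher (median 2.57), and their mean level was 9.72 to 12.18 in HDM ear against 8.14 to 8.55 in sham ear. In back skin 0 of 14 were called, with 9.54 to 10.07 in HDM and 8.75 to 10.38 in sham skin. In sham ear against sham back skin 7 of 14 were lower, beside 14.1% of all rows. T cell markers were higher for 7 of 11 in ear and 4 of 11 in back skin, with mean levels of 5.59 to 7.86 in HDM ear and 5.30 to 5.68 in sham ear. The 4 not called in ear were Cd3e, Cd3d, Cd3g and Cd28. Of these, Cd3e (8.18 in HDM and 8.58 in sham ear), Cd3g (5.30 and 5.67) and Cd28 (6.11 and 6.54) had lower means in HDM ear. Cd3d averaged 6.14 and 5.66. Neutrophil markers were higher for 7 of 8 in ear (mean level 8.26 to 13.50 in HDM and 4.01 to 5.39 in sham ear) and 6 of 8 in back skin. In ear all 8 skeletal muscle markers and all 6 adipocyte markers were lower. Within HDM ear, mice 3 and 6, which held the lowest value for 10 and 13 members, had macrophage levels of 9.72 and 9.96, and mice 1, 2 and 5 had 11.98, 12.18 and 11.61. Mouse 8 had 9.73. The part of these cells in the members' values was not tested.

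Of 9 natural killer and cytotoxic cell markers, 2 were higher and 1 lower in ear, shares near the 16.4% and 15.5% of all rows. Their mean level was 3.74 to 4.78 in HDM and 3.67 to 4.06 in sham ear. Ncr1, Gzma, Eomes and Prf1 were below background on all 32 arrays. Prf1 was the marker called lower, with 3.60 in HDM and 4.07 in sham ear. Klrk1, a receptor gene, rose by 0.72 ± 0.24, and Gzmb, a granule protease gene of cytotoxic cells, was at least 3.96-fold higher in HDM ear (adjusted p = 7.80e-07). Among 6 plasmacytoid dendritic cell markers 1 was called higher in ear and 1 in back skin, beside 16.4% and 6.18% of all rows, and 3 were below background in both groups of each. In back skin 7 of 9 dendritic and Langerhans cell markers were lower and 1 higher, with a mean level of 6.87 to 7.16 in HDM against 7.46 to 9.25 in sham skin, beside the falls of Gbp4, Iigp1, Ifih1 and Cmpk2. The highest sham levels, 9.25 and 9.23, were those of mice 1 and 2. In ear 0 of these 9 were called, beside 31.9% of all rows, and in back skin 8.56% of all rows were lower. Their part in the falls was not tested.

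The wider pathway was followed through lists of further genes. Their counts stand beside 16.4% of all rows higher and 15.5% lower in ear. In back skin these shares were 6.18% and 8.56%. Of 17 receptor and signalling genes, 10 were higher and 2 lower in ear. The feedback inhibitor genes Socs3 and Socs1 rose by 3.68 ± 0.51 and 2.29 ± 0.38, Jak2, a kinase of the gamma receptor, rose by 1.69 ± 0.24, and Ifnlr1, a subunit of the lambda receptor, fell by 1.74 ± 0.30. The receptor genes Ifnar1, Ifnar2, Ifngr1 and Ifngr2 were all among those higher. In back skin 2 were higher, Irf3 by 0.86 ± 0.16 and Il10rb by 0.74 ± 0.20. Of 14 nucleic acid sensing genes, 8 were higher in ear, among them Tlr13 (3.61 ± 0.49), Sting1 (3.16 ± 0.38) and the adaptor gene Myd88 (2.52 ± 0.30), and 2 in back skin, Tlr13 (1.41 ± 0.49) and Myd88 (0.95 ± 0.30). Of 12 genes tied to induction of interferon-gamma, 4 were higher in ear, led by the IL-18 receptor subunit gene Il18rap (2.86 ± 0.55), and 2 in back skin, Il18 (1.52 ± 0.21) and Il18r1 (1.22 ± 0.29). In ear 4 of the 12 were below background in both groups. They include Tbx21, which had the smallest called rise, 0.28. List medians were 0.85, 0.96 and 0.02 in ear and 0.04, -0.06 and 0.08 in back skin, against -0.02 and 0.01 for all rows.

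Further target genes behaved unevenly. Their counts stand beside the same shares of all rows, 16.4% higher in ear and 6.18% higher and 8.56% lower in back skin. Of 12 antigen processing genes, 5 were higher in ear, including the immunoproteasome subunit genes Psmb10 (2.27 ± 0.33), Psmb8 (1.91 ± 0.32) and Psmb9 (1.25 ± 0.30), while in back skin Ciita, the master regulator of MHC class II, fell by 1.17 ± 0.26. Of 10 further gamma-type genes, 6 were higher in ear. In back skin 3 were lower and 1, Gzmb, was higher. The lower ones were Irgm2 (-0.88 ± 0.29), Cd274 (-1.11 ± 0.39), the gene of PD-L1, and Tgtp2, at least 1.24-fold lower in HDM back skin. Of 52 further type I genes, 28 were higher and 3 lower in ear, beside 16.4% and 15.5% of all rows. In back skin 4 were higher and 4 lower, shares near the 6.18% and 8.56% of all rows. Slfn4, a Schlafen family gene, was at least 12.8-fold higher in HDM ear, and rose by 4.08 ± 0.77 in back skin, where 2 of 8 sham arrays were above background. Slfn2 rose by 4.44 ± 0.52 in ear and 1.59 ± 0.52 in back skin. Ifitm3, whose protein blocks entry of viruses, rose by 3.62 ± 0.33 in ear. Parp10 fell by 1.41 ± 0.28 in ear and by 1.45 ± 0.28 in back skin.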

How the data were processed

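RNA from whole punches of ear and back skin was hybridised to Mouse Clariom D arrays, a 1-colour Affymetrix platform, 8 arrays in each of 4 groups. The deposited values are log2 levels that the authors made with Transcriptome Analysis Console and RMA, per the submitters' processing notes. The software versions and the genome build were not given in the sources used here. Values reach 19.93, and whether they were rescaled after RMA is unknown, so folds may not be true ratios while directions hold.

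Of 28846 rows, 6640 control rows were left out and 22206 were tested. Genes were named from the platform annotation. A model with 4 group means was fitted to all tested rows with limma 3.58.1 (lmFit and eBayes, R 4.3.3), with Benjamini-Hochberg adjustment over all of them and a threshold of 0.05. It was tested on simulated data. All adjusted p-values are from this model. The number of arrays limits the precision. Members and lists were chosen with earlier results of these data known. All members could be named, with full values for the largest called differences of each class, and up to 4 of the largest called differences of each further list. Ifnb1, the interferon receptor genes and the natural killer cell genes named were chosen after their values were seen. Promoter windows are RefSeq's. Alternatives covered normalization, dim rows, background, array weights, mouse number as a block, control rows, separate fits per tissue, sham back mice 1 and 2, and each array in turn.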

Additional observations from a re-analysis of the deposited data

Results flagged for a closer look

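Single arrays stood far from the other 7 of their group for 4 of 121 member and group combinations examined by Dixon's ratio at its 95% critical value for 8 arrays, a test that by chance picks out about 1 in 20. Combinations with no array above background were not examined. Ifng was 4.81 in HDM ear mouse 5, against 2.79 to 3.72 on the other HDM ear arrays. It was 5.17 in sham back mouse 1, against 2.86 to 3.56 on the others of that group. In each of these groups the flagged array was the only one above background for Ifng. Both combinations were thus examined only because of that array, and the 1 in 20 does not apply to them. Irf7 was 6.65 in HDM back mouse 6, against 4.95 to 5.72. Parp14 was 8.60 in sham ear mouse 6, against 6.46 to 7.38.

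The HDM effect in ear minus that in back skin was above 0, by limma's test of the difference itself, for 18 members. For Ifih1 and Cmpk2 the effect itself was called in back skin and not in ear. Among gamma-type genes the differences of effects were 4.40 for Cxcl9, 2.95 for Gbp2, 2.20 for Gbp3, 2.54 for Gbp7, 2.81 for Iigp1 and 2.81 for Igtp. Among type I genes they were 3.10 for Oasl2 and 2.18 for Mx1. Among the others they were 3.05 for Cxcl10, 2.63 for Rtp4, 1.69 for Irf7, 1.58 for Irf1, 1.35 for Cmpk2, 1.30 for Ifih1, 1.29 for Tap1, 1.27 for Parp9, 1.26 for Xaf1 and 1.03 for Irf9. Sham ear was below background throughout for Oasl2, Cxcl10, Igtp and Irf7, and with values set to background theirs were 2.27, 1.54, 1.78 and 0.98, the last not called (adjusted p = 0.0914). Those of Irf7, Irf9 and Parp9 had adjusted p-values of 0.0446, 0.0413 and 0.0497, and without sham back mice 1 and 2 none of these 3 was called.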

How the results depend on the processing

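Dim signal limits the type I genes most. With values under background raised to it, 6 members were called lower in ear, 6 lower for the difference of effects and 10 higher in sham ear against sham back skin. Of all 22206 rows, 12221 were then lower in ear, 9789 lower for the difference and 12119 higher between sham sites. The class gap was 1.64 in ear and -1.65 between sham sites. Reversed in ear were Ifng (-0.37), Mx2 (-0.38), Oas1a (-0.27), Oas3 (-0.13), Oasl1 (-0.38), Rsad2 (-0.04) and Zbp1 (-0.27). Reversed for the difference were Ifng (-0.48), Oas1a (-0.42), Oasl1 (-0.50) and Zbp1 (-0.39). Reversed between sham sites were Ifng (0.47), Cxcl10 (0.15), Rsad2 (0.46) and, at 0.48 each, Isg15, Mx2, Oas1a, Oas2, Oas3, Oasl1 and Zbp1. This setting puts the group's background, 4.82 in HDM ear, 5.20 in sham ear and 4.72 in sham back skin, in place of the values. A row below background in both groups then shows only the difference of their backgrounds. Without sham back mice 1 and 2, 1 member was lower in back skin and 10 were higher for the difference; with a separate fit per tissue 1 was higher in back skin and 19 in ear, and with array weights 19 were higher in ear and 12 for the difference. The causes were not tested. Leaving out each array in turn gave 18 to 28 higher in ear (18 without HDM ear mouse 2), 3 to 5 lower in back skin, 13 to 20 for the difference, 17 to 21 lower between sham sites and 6 to 11 higher between HDM sites. The class gaps then ran from 0.84 to 1.03, -1.0 to -0.75, 1.88 to 2.22, -1.26 to -1.06 and 0.72 to 1.03. Ear and back samples with the same mouse number and treatment correlated weakly in their deviations from group means (-0.144 to 0.165 over 16 pairs, 2 over 0.1). Such correlations cannot show whether the samples came from 1 animal. With the replicate block as a random term the counts were 27, 4, 18, 19 and 8, and as a fixed term 30, 4, 19, 20 and 10. Of 2163 gene results under settings other than leaving out an array, 2046 kept their side of the threshold and direction, 69 lost a call, 27 gained one and 21 reversed.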
